A study of Drosophila melanogaster with 36 samples.

Results

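Transcripts of 6 maternal genes of Drosophila melanogaster that act at egg activation or in the first nuclear cycles were followed across 9 isogenic lines at 5 h and 8 h of embryonic age. The genes are giant nuclei (gnu), plutonium (plu), pan gu (png), cortex (cort), deadhead (dhd) and Nasrat (fs(1)N). They were taken as a named list, and every probe set that the platform annotation assigns to them was used. Each of the 6 genes had 1 probe set, which gave 6 of 18769 non-control probe sets and 6 of 11982 genes named on the array, and no second probe set was there to check a level. An isogenic line is an inbred stock whose flies are close to genetically identical. There were 36 arrays of embryo RNA, with 2 RNA samples named for each line and time except Drosophila_17 at 5 h, which had 1. The lines, named after their array titles, are Drosophila_17, Drosophila_23, Drosophila_58, Drosophila_75, Drosophila_83, Drosophila_89, Drosophila_128, Drosophila_134 and Drosophila_145, each at 5 h and at 8 h, and the plots give the number alone; the labels used here give no treatment, allele or further genotype. The remaining array, at 5 h, carries a title without a line and was kept out of comparisons of lines, which left 35 arrays. Nothing says that the RNA samples of a line are separate collections of embryos, so line p-values rest on a spread between samples that may be technical.

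The egg is loaded in the ovary with the RNAs and proteins that run the embryo until its own genome is switched on, and much of this maternal RNA is then degraded. png encodes the catalytic subunit of the PAN GU kinase, and plu, an ankyrin-repeat protein, and gnu encode the subunits that activate it. At egg activation this kinase changes the translation of many maternal messages, and without it the nuclei of the early embryo replicate DNA without dividing. cort encodes a Cdc20-family activator of the anaphase-promoting complex that acts in female meiosis. dhd encodes a thioredoxin of the female germ line that reduces sperm protamines after fertilisation, so that they can be replaced by histones. fs(1)N encodes a secreted protein laid down at the vitelline membrane that is needed for the eggshell and for local activation of the Torso receptor at the embryo's ends. No sequences of these genes or probes were used here. By the reference annotation, png, dhd and fs(1)N lie on the X chromosome, gnu on 3L, cort on 2L and plu on 2R. fs(1)N and png are close neighbours with 6 coding genes between them.

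Whole-series measures were as follows. Total deposited intensity of an array, called brightness below, was 68984 to 309710 at 5 h and 46261 to 266525 at 8 h. It was lower at 8 h than at 5 h in 7 of 9 lines, with a median change of -0.56 on the log2 scale, so brightness moved with time. A negative-control limit was set on each array at the 99th percentile of 50 control probe sets, and it lay between 1.62 and 2.98. A probe set above it on 18 or more arrays is called measured below, which 6183 were. In the 17 pairs of arrays that share a line and time, r over measured probe sets, which are not independent replicates, was 0.916 to 0.979. Intensities below are quantile normalised and in arbitrary units, and differences are on the log2(intensity + 16) scale, which understates the change of dim probe sets. Intensities of different genes come from different probes and are not compared with each other.

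The labelled tissue was checked against marker lists. All 8 early zygotic genes of the cellularising embryo fell from 5 h to 8 h, and 6 of 7 genes of older embryos rose. Their summed intensities ranged over arrays from 86.3 to 1518 and from 13.3 to 279 for the early zygotic list at 5 h and 8 h, and from 9.00 to 206 and from 14.2 to 425 for the older-embryo list. Markers of ovary eggshell and yolk, adult gut and testis were near background, with sums of 4.56 to 18.3 over 8 genes, 0.789 to 14.8 over 6 genes and 0.512 to 5.33 over 4 genes, and 0 of these 18 genes were called for time or for lines. The yolk gene Yp1, the gut protease gene Jon99Ci and the testis gene dj were above the limit on 0 of 36 arrays. Cp15, a chorion gene, was above it on 18 arrays at a mean of 2.61 at 5 h and 1.82 at 8 h.

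Of the PAN GU subunits, gnu and plu were measured and png was not. Of the 18 arrays at each time, the gnu signal exceeded the limit on 18 at 5 h and 15 at 8 h, and that of plu on 18 and 13. The png signal was above it on 10 and 5 arrays only. cort was likewise not measured, with 9 and 7 arrays above the limit. dhd was above the limit on 18 and 17 arrays, and fs(1)N on 15 and 9. So 4 of the 6 genes passed as measured, and png and cort stayed near background in most lines.

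**Figure D1:**
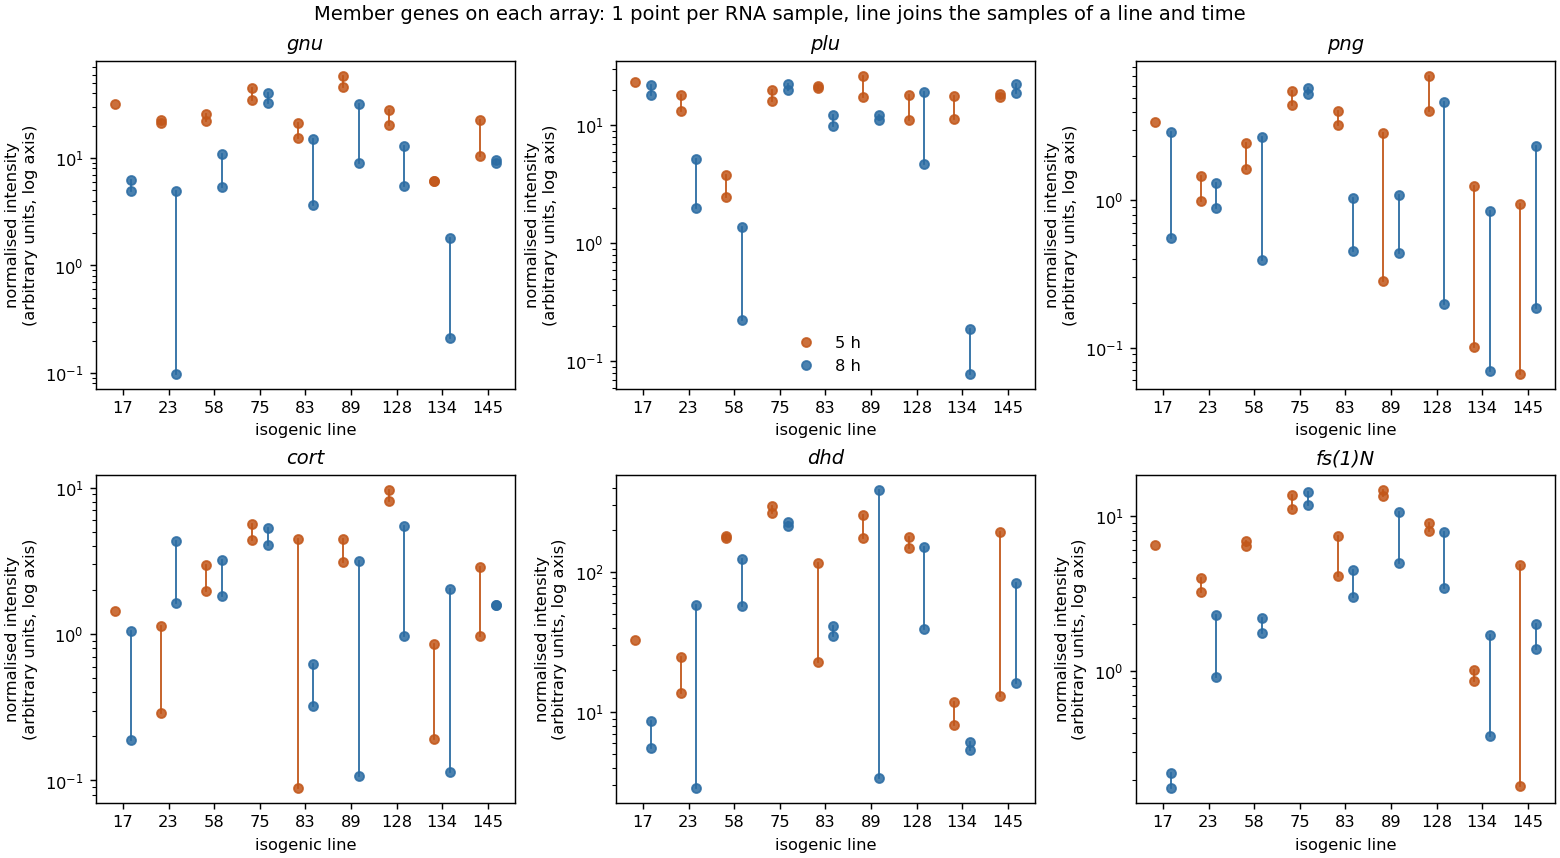
Normalised intensity (arbitrary units, log axis) of the 6 genes on the 35 arrays with a named line, by line, at 5 h (orange) and 8 h (blue). Each point is an RNA sample and a vertical line joins the RNA samples of a line and time; dhd in Drosophila_89 at 8 h spans 3.41 to 385, while gnu in Drosophila_75 stays between 32.3 and 45.0 at both times.

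The comparison of 8 h with 5 h asks whether these maternal transcripts change over this interval. Of the 6 genes, 4 were lower at 8 h, namely gnu, plu, dhd and fs(1)N. png and cort did not pass the test. Over all probe sets 3.67% were called lower at 8 h and 3.85% higher, and over measured probe sets 10.6% were called lower. The balance of all calls depended on the scaling: 688 of 1411 were lower here, 2948 of 3276 on the deposited scale, 2874 of 3275 with arrays centred on their medians and 539 of 1896 after scaling to the same 90th percentile, and the 6 genes had negative changes under each of these scalings. After the last of them 3 of the 6 genes were called in place of 4. Fewer cells holding a transcript and less of it per cell cannot be told apart in RNA of whole embryos.

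gnu, an activating subunit of the kinase, had the lowest p of the 6 genes. Its intensity was lowest at 6.16, median 22.6 and highest at 58.1 over the 5 h arrays with a named line. Over the 18 arrays at 8 h these values were 0.0982, 7.60 and 40.5. The 5 h array without a line is left out of such values for the other genes too. The groups overlapped, but within lines the 8 h mean was lower in 9 of 9. The line means fell from 26.1 ± 13.6 to 11.3 ± 10.9 (SD, n = 9 lines), a change of -0.65 ± 0.10 (SE) with an adjusted p of 0.000158 by limma. The change ran from -1.14 in Drosophila_17 to -0.10 in Drosophila_75. In Drosophila_23 the RNA samples read 21.3 and 22.6 at 5 h and 4.90 and 0.0982 at 8 h, and in Drosophila_89 they read 46.0 and 58.1 at 5 h and 8.96 and 31.9 at 8 h. Tested line by line, the fall passed the threshold in Drosophila_23 (-1.05, limma adjusted p = 0.00401) and Drosophila_89 (-0.97, limma adjusted p = 0.0253), where 1.8% and 0.426% of all probe sets were called lower.

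plu, the partner of gnu in the kinase, was lower at 8 h in most lines and not in all. Its lowest, median and highest values were 2.50, 17.6 and 26.3 at 5 h and 0.0786, 11.7 and 22.7 at 8 h. The line means were 16.7 ± 6.01 and 11.3 ± 8.35 (SD, n = 9), and the change was -0.31 ± 0.09 with a limma adjusted p of 0.0426. Its mean was lower at 8 h in 7 of 9 lines. In Drosophila_134 the RNA samples read 11.4 and 17.6 at 5 h but 0.0786 and 0.187 at 8 h, both of these under the limit. That fall of -0.91 (limma adjusted p = 0.000631) and the fall of -0.69 in Drosophila_23 (limma adjusted p = 0.0135) passed the threshold, in lines where 4.05% and 1.8% of probe sets were called lower. In Drosophila_75 and Drosophila_145 plu was higher at 8 h, with line means of 18.04 and 17.9 at 5 h and 21.3 and 20.6 at 8 h. The overall call was lost when Drosophila_23, Drosophila_58, Drosophila_83, Drosophila_89, Drosophila_128 or Drosophila_134 was left out, with adjusted p between 0.0566 and 0.141.

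png, the kinase subunit itself, had a lowest, median and highest intensity of 0.0664, 2.44 and 7.01 at 5 h and 0.0697, 0.960 and 5.80 at 8 h. Its change was -0.07 ± 0.04 with a limma adjusted p of 0.363. cort had corresponding values of 0.0891, 2.87 and 9.64 at 5 h and 0.107, 1.603 and 5.50 at 8 h, and changed by -0.06 ± 0.05 (limma adjusted p = 0.5). At these intensities most values lay below the pseudocount and a change would be strongly compressed.

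dhd was bright and variable. Its intensity was lowest at 8.12, median 149.5 and highest at 294 at 5 h, and 2.88, 40.0 and 385 at 8 h. The highest of all values was therefore at 8 h, in an RNA sample of Drosophila_89. The line means were 118.8 ± 94.9 at 5 h and 81.3 ± 78.4 at 8 h (SD, n = 9), and the change was -0.62 ± 0.14 with a limma adjusted p of 0.00598. It was lower at 8 h in 8 of 9 lines, and the exception was Drosophila_23 with a change of 0.11. In limma's tests of each line alone the lowest adjusted p for dhd was 0.702, in Drosophila_89. With only RNA sample 2 of each line and time the adjusted p for dhd was 0.138, and with only RNA sample 1 it was 0.308. With arrays as units and line as a block the change was -0.61 (limma adjusted p = 0.131), and 3 of the 6 genes were called.

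fs(1)N, the eggshell gene, ranged from 0.182 over a median of 6.44 to 14.6 at 5 h and from 0.177 over 2.25 to 14.1 at 8 h. Its line means were 6.73 ± 4.32 and 4.06 ± 4.10 (SD, n = 9), a change of -0.18 ± 0.05 with a limma adjusted p of 0.0384. It was lower at 8 h in 7 of 9 lines. The widest negative difference was in Drosophila_17, from 6.44 on its single array at 5 h to 0.220 and 0.177 at 8 h. The call was lost when Drosophila_17, Drosophila_23, Drosophila_58, Drosophila_83, Drosophila_89 or Drosophila_128 was left out, with adjusted p between 0.0649 and 0.12, and with arrays scaled to the same 90th percentile (-0.13, limma adjusted p = 0.119).

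**Figure D2:**
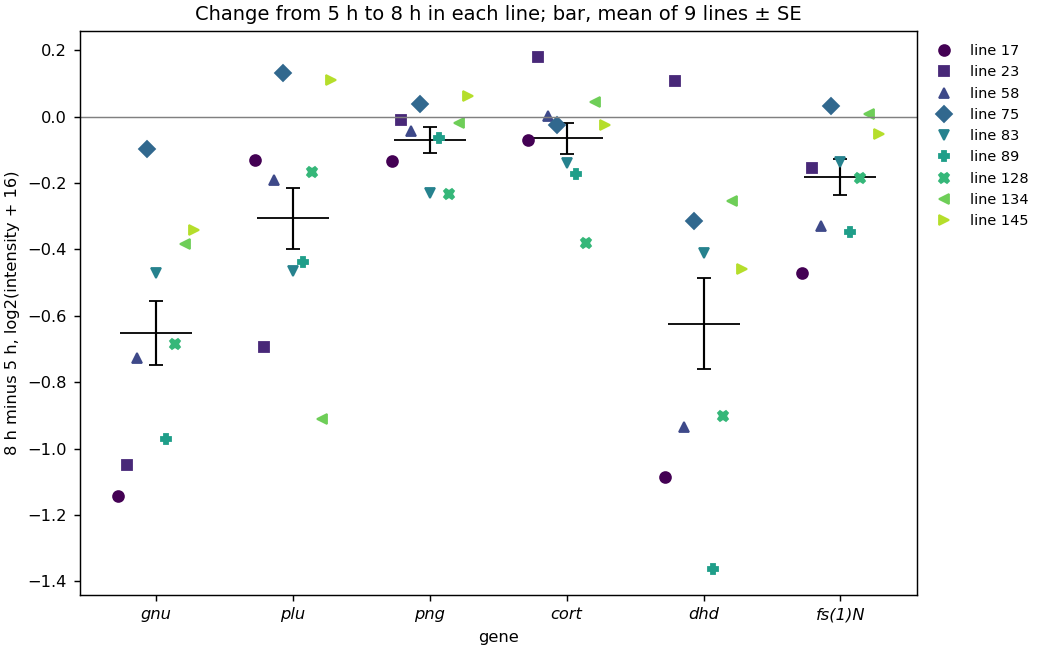
Change from 5 h to 8 h on the log2(intensity + 16) scale for each gene, with a symbol for each of the 9 lines and a bar with SE for the mean of the lines. All 9 lines lie below 0 for gnu, and the dhd lines spread from -1.36 to 0.11.

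Brightness was lower at 8 h in most lines, as were gnu, plu, dhd and fs(1)N. Drosophila_75, whose log2 brightness changed by 0.01, had the change of gnu nearest to 0 (-0.10). There plu (0.13), png (0.04) and fs(1)N (0.03) had positive differences, and dhd (-0.32) and cort (-0.03) negative ones. None of these passed the test in that line. In Drosophila_145, the other line that was not dimmer at 8 h, log2 brightness changed by 0.21. There gnu changed by -0.34, dhd by -0.46, fs(1)N by -0.05 and cort by -0.03, while plu changed by 0.11 and png by 0.06. With brightness as a covariate in the fit of line means, an alternative chosen after seeing the data, 0 of the 6 genes were called by limma, with 1 at an unadjusted p under 0.05; gnu changed by -0.43 (limma adjusted p = 0.314) and dhd by -0.41 (limma adjusted p = 0.636), and 28 probe sets were called in all. With brightness as a covariate in a fit on single arrays, gnu stayed called and dhd changed by -0.11 (limma adjusted p = 0.93). The part of brightness in the changes was not tested beyond these fits.

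The second question was whether the lines carry different amounts of these transcripts. Over both times, all 6 genes differed among the 9 lines by limma's moderated F test. At 5 h 5 of 6 did, png being the exception, and at 8 h gnu, plu, dhd and fs(1)N did. The shares of all probe sets called were 19.5%, 7.45% and 18.4%, and of measured probe sets 51.4%, 21.1% and 44.2%. The change from 5 h to 8 h was not shown to differ between lines for any of the 6 genes, with adjusted p from 0.0843 for plu to 0.987 for dhd, against 1.37% of all probe sets called. At an unadjusted p under 0.05, 2 of the 6 passed limma's test, gnu and plu.

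gnu was highest in Drosophila_89 and Drosophila_75 and lowest in Drosophila_134. At 5 h the line means in order were 52.1 in Drosophila_89, 40.1 in Drosophila_75, 31.7 in Drosophila_17, 24.3 in Drosophila_128, 23.9 in Drosophila_58, 22.0 in Drosophila_23, 18.3 in Drosophila_83, 16.6 in Drosophila_145 and 6.17 in Drosophila_134. The values of Drosophila_89, Drosophila_75 and Drosophila_17 did not overlap with those of the next line in this order, while Drosophila_128 and Drosophila_58 could not be told apart from each other, nor Drosophila_83 and Drosophila_145. The lowest line stood clear, since its RNA samples read 6.17 and 6.16 and the next line's lower sample 10.4. At 8 h Drosophila_75 led with 36.4, followed by Drosophila_89 with 20.4 and by 5 lines between 5.59 and 9.28, and Drosophila_23 and Drosophila_134 were lowest with 2.50 and 1.02. Over both times gnu spanned 1.48 on the log2 scale between the highest and lowest line, against an SD of 0.23 between RNA samples (limma adjusted p = 3.83e-07).

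plu followed another order, with Drosophila_58 apart from the rest at 5 h. Its RNA samples in Drosophila_58 read 2.50 and 3.82 at 5 h and 0.223 and 1.37 at 8 h. The other lines at 5 h lay between 14.5 and 23.4, in the order Drosophila_17, Drosophila_89, Drosophila_83, Drosophila_75, Drosophila_145, Drosophila_23, Drosophila_128 and Drosophila_134, in which only the step from Drosophila_83 to Drosophila_75 was free of overlap between neighbours. Measured against the mean of the other 8 lines over both times, plu was lower by 0.77 ± 0.09 in Drosophila_58 (limma adjusted p = 2.66e-07), in a line where 3.09% of probe sets were called lower. At 8 h Drosophila_75, Drosophila_145 and Drosophila_17 led with 21.3, 20.6 and 20.03 and did not separate, Drosophila_128, Drosophila_89 and Drosophila_83 lay between 11.1 and 12.1, and Drosophila_23, Drosophila_58 and Drosophila_134 were lowest with 3.59, 0.797 and 0.133. Over both times the span was 1.07 (limma adjusted p = 2.23e-07). The difference among lines at 5 h rested on Drosophila_58: without it the adjusted p was 0.903.

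png and cort had their highest means in Drosophila_75 and Drosophila_128 at both times. png read 4.48 and 5.55 at 5 h and 5.32 and 5.80 at 8 h in Drosophila_75, and 4.07 and 7.01 at 5 h and 4.69 and 0.198 at 8 h in Drosophila_128. The other lines had png means of 0.505 to 3.65 at 5 h and 0.459 to 1.75 at 8 h. cort read 9.64 and 8.12 at 5 h and 5.50 and 0.965 at 8 h in Drosophila_128, and 5.67 and 4.41 at 5 h and 5.27 and 4.07 at 8 h in Drosophila_75. Over both times the limma adjusted p for lines was 0.00519 for png and 0.00482 for cort, with spans of 0.36 and 0.38. These calls rested on single lines: without Drosophila_75 the adjusted p for png was 0.202, and without Drosophila_128 that for cort was 0.0534. Both were also lost with 1 RNA sample per line and time, with limma adjusted p of 0.282 and 0.389 for png and 0.196 and 0.443 for cort. cort was higher in Drosophila_128 than in the other 8 lines by 0.27 ± 0.06 (limma adjusted p = 0.0112), against 1.76% of probe sets called higher in that line. The call of cort among lines at 5 h alone held in 15 of 17 alternative settings. It was lost with a pseudocount of 1 (limma adjusted p = 0.0829), and the highest limma adjusted p was 0.3.

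dhd had the widest span of the 6 genes, 3.48 on the log2 scale, from Drosophila_75 down to Drosophila_134 (limma adjusted p = 0.000133). At 5 h the line means were 279 in Drosophila_75, 215 in Drosophila_89, 178 in Drosophila_58, 163 in Drosophila_128, 103 in Drosophila_145, 69.4 in Drosophila_83, 32.9 in Drosophila_17, 19.3 in Drosophila_23 and 9.97 in Drosophila_134. At 8 h they were 221 in Drosophila_75, 194 in Drosophila_89, 94.8 in Drosophila_128, 90.5 in Drosophila_58, 50.1 in Drosophila_145, 37.9 in Drosophila_83, 30.7 in Drosophila_23, 7.10 in Drosophila_17 and 5.74 in Drosophila_134. Drosophila_75 at 8 h, with 229 and 212, was above every other array at that time except an RNA sample of Drosophila_89. On the log2 scale Drosophila_58 and Drosophila_128 came before Drosophila_89 at 8 h. At 5 h each line from Drosophila_89 down to Drosophila_83 overlapped with the next in the order. The calls at single times rested on the extreme lines: without Drosophila_75 the limma adjusted p was 0.0576 at 5 h and 0.208 at 8 h, without Drosophila_134 it was 0.111 and 0.0865, and without Drosophila_17 it was 0.0622 at 8 h. Both calls were also lost with brightness as a covariate (limma adjusted p of 0.106 at 5 h and 0.124 at 8 h). Without a trend in the prior variance the limma adjusted p was 0.167 at 5 h and 0.191 at 8 h.

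fs(1)N was highest in Drosophila_89 and Drosophila_75 at 5 h, with means of 14.02 and 12.3 that overlapped, and lowest in Drosophila_134 with 0.939. Drosophila_128, Drosophila_58, Drosophila_17 and Drosophila_83 lay between 5.74 and 8.47, and Drosophila_23 and Drosophila_145 at 3.59 and 2.49. At 8 h Drosophila_75 led with 12.9, its values of 11.7 and 14.1 lying above those of every other line, followed by Drosophila_89 and Drosophila_128 with 7.74 and 5.63, and Drosophila_17 was lowest with 0.199. The span over both times was 0.75, against an SD of 0.12 between RNA samples (limma adjusted p = 1.56e-07).

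**Figure D3:**
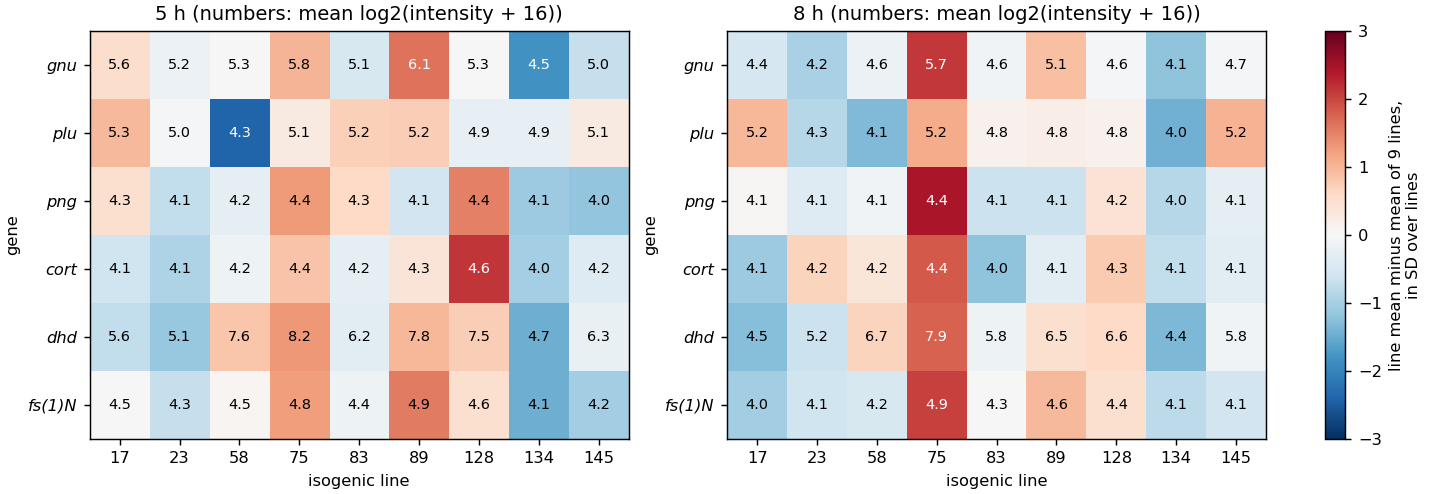
Mean log2(intensity + 16) of each gene (rows) in each line (columns) at 5 h and 8 h, printed in the cells; colour gives the distance from the mean of the 9 lines in SD over lines. Drosophila_75 is red or pale red in nearly every row, Drosophila_134 is blue in most, and plu is lowest in Drosophila_58 at 5 h.

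Drosophila_75 was above the mean of the other 8 lines for all 6 genes. Over both times it was higher by 0.85 ± 0.12 for gnu (limma adjusted p = 5.84e-06), by 0.50 ± 0.07 for fs(1)N (1.82e-06), by 2.03 ± 0.43 for dhd (0.00133), by 0.26 for png (0.00191), by 0.34 for plu (0.013) and by 0.20 for cort (0.0359). Over all probe sets 5.09% were called higher in Drosophila_75. Drosophila_89 was higher for gnu by 0.67 and for fs(1)N by 0.39 (limma adjusted p of 0.000716 and 0.000414), against 1.82% of probe sets. Drosophila_134 was lower for gnu by 0.81, dhd by 1.88, plu by 0.43 and fs(1)N by 0.34 (limma adjusted p between 5.62e-05 and 0.00525), against 3.08%. plu was also called higher in Drosophila_17 and Drosophila_145, and fs(1)N lower in Drosophila_145, with limma adjusted p between 0.0331 and 0.0457; there 0.65% and 1.94% of probe sets were called higher and 0.73% lower.

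The order of lines was shared by some genes. Of 30 gene pairs over both times, each tested across the 9 line means with an exact two-sided permutation test, 7 had an adjusted p under 0.05 and 12 an unadjusted p under 0.05. At 5 h gnu and fs(1)N correlated with r = 0.93 (exact permutation p = 0.000389, adjusted 0.0117) and rho = 0.93 (p = 0.00075, adjusted 0.0225), and r was 0.83 without Drosophila_89 and Drosophila_134. dhd and fs(1)N correlated with r = 0.85 (exact permutation p = 0.0044, adjusted 0.0264) and rho = 0.85 (p = 0.00607, adjusted 0.0364) at 5 h, with r = 0.71 without Drosophila_75 and Drosophila_134. cort and dhd gave r = 0.76 at 5 h (exact permutation p = 0.0106, adjusted 0.0473) and rho = 0.88 (p = 0.00307, adjusted 0.0364), and 0.95 without Drosophila_75 and Drosophila_128.

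At 8 h gnu correlated with fs(1)N at r = 0.92 (exact permutation p = 0.00117, adjusted 0.0171; rho = 0.85, p = 0.00607, adjusted 0.0364) and with dhd at r = 0.86 (exact permutation p = 0.00227, adjusted 0.0171; rho = 0.77, p = 0.0214, adjusted 0.0802). dhd and fs(1)N gave r = 0.86 (exact permutation p = 0.00197, adjusted 0.0171; rho = 0.83, p = 0.00827, adjusted 0.0413). Without Drosophila_75 and Drosophila_134 these values of r were 0.79, 0.62 and 0.70. png and cort gave r = 0.78 at 8 h (exact permutation p = 0.011, adjusted 0.0473; rho = 0.67, p = 0.0589, adjusted 0.143), but 0.21 without Drosophila_75 and Drosophila_128, so that relation rested on those lines. Without Drosophila_75 alone 0 of the 30 pairs passed. plu was in none of the 7 pairs, and its r with gnu, its partner in the kinase, was 0.24 at 5 h (exact permutation p = 0.484, adjusted 0.581; rho = 0.50, p = 0.178, adjusted 0.296) and 0.60 at 8 h (exact permutation p = 0.0832, adjusted 0.156; rho = 0.77, p = 0.0214, adjusted 0.0802).

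Brightness and the early zygotic list were set beside these orders in 24 relations, of which 5 had an adjusted p under 0.05, all at 5 h. These measures were themselves linked at 5 h. The brightest lines, Drosophila_89 and Drosophila_75 (285471 and 237594), had the lowest early zygotic means (4.89 and 4.99). The dimmest, Drosophila_134 and Drosophila_145 (106117 and 90696), had the highest (7.03 and 6.70). Their relations with the genes were not separated. Brightness correlated with gnu at r = 0.84 (exact permutation p = 0.00474, adjusted 0.036; rho = 0.85, p = 0.00607, adjusted 0.0486) and with fs(1)N at r = 0.84 (exact permutation p = 0.00599, adjusted 0.036; rho = 0.80, p = 0.0138, adjusted 0.0553), and without Drosophila_89 and Drosophila_145 the values of r were 0.84 and 0.72. The mean of the early zygotic list ran the other way: r was -0.93 with dhd (exact permutation p = 0.0011, adjusted 0.0132; rho = -0.87, p = 0.00451, adjusted 0.0486), -0.92 with fs(1)N (exact permutation p = 0.0004, adjusted 0.00959; rho = -0.93, p = 0.00075, adjusted 0.018) and -0.79 with gnu (exact permutation p = 0.00833, adjusted 0.04; rho = -0.80, p = 0.0138, adjusted 0.0553). Without Drosophila_89 and Drosophila_134 these were -0.89, -0.85 and -0.55.

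The summed early zygotic intensity at 5 h was 1441 in Drosophila_134, 1162 in Drosophila_145, 922 in Drosophila_17, 810 in Drosophila_23, 530 in Drosophila_83, 364 in Drosophila_128, 238 in Drosophila_58, 154 in Drosophila_75 and 126 in Drosophila_89. The lines with the most dhd, gnu and fs(1)N at 5 h, Drosophila_75 and Drosophila_89, were thus those with the least early zygotic signal, and Drosophila_134 was at the other end of both. plu did not follow, with r = 0.16 (exact permutation p = 0.743, adjusted 0.811; rho = -0.17, p = 0.678, adjusted 0.739). At 8 h 0 of the 12 relations had an adjusted p under 0.05, and the only unadjusted p under 0.05 were those of brightness with gnu and with dhd (exact permutation p = 0.0323 and 0.0482). The summed older-embryo intensity at 5 h was 59.0 in Drosophila_75, 56.6 in Drosophila_89 and 65.9 in Drosophila_134. It ranged over lines from 30.8 in Drosophila_128 to 193 in Drosophila_58, so it did not follow the early zygotic order. The part of developmental progress in the line differences was not tested.

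**Figure D4:**
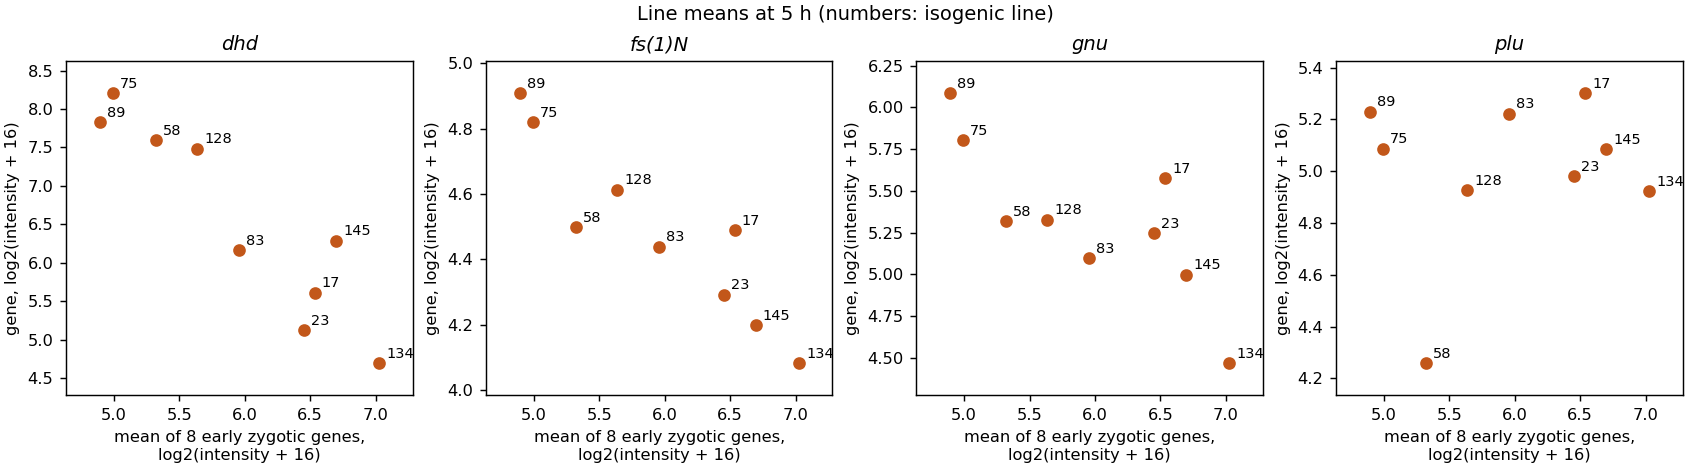
Line means at 5 h of dhd, fs(1)N, gnu and plu (vertical axes, log2(intensity + 16)) against the mean of 8 early zygotic genes (horizontal axes, same scale), with 1 point per line, numbered. dhd, fs(1)N and gnu decline from Drosophila_89 and Drosophila_75 on the left to Drosophila_134 on the right, while plu is nearly flat with Drosophila_58 below the rest.

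dhd also differed widely between the RNA samples of a line. The SD between RNA samples was 0.81 on the log2 scale for dhd, and 0.11 to 0.23 for the other 5, on a scale that compresses the differences of dim genes. In Drosophila_89 at 8 h the samples read 3.41 and 385, a gap of 4.37, and in Drosophila_145 at 5 h 194 and 12.9, a gap of 2.86. Drosophila_23 at 8 h read 58.4 and 2.88, and Drosophila_83 at 5 h 116 and 22.8. The median gap was 0.34 at 5 h and 0.93 at 8 h.

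In the 2 pairs with the widest gaps, gnu and fs(1)N differed in the same direction as dhd, and plu differed little. In the third widest, Drosophila_23 at 8 h, gnu read 4.90 and 0.0982 in the order of dhd, and fs(1)N read 0.914 and 2.29 in the opposite order. Over the 17 pairs gnu differed in the direction of dhd in 13, and fs(1)N and plu in 10 each; over measured probe sets the median of that count was 9 and the 90th percentile 12. In Drosophila_89 at 8 h gnu read 8.96 and 31.9 and fs(1)N 4.98 and 10.5 in the same order as dhd, while plu read 12.2 and 11.2. The arrays of that pair correlated with r = 0.936 over measured probe sets, within the range of the other pairs, their brightness was 121704 and 140785, and their early zygotic sums were 73.3 and 36.1. In Drosophila_145 at 5 h gnu read 22.7 and 10.4 and fs(1)N 4.80 and 0.182, plu read 18.5 and 17.4, brightness was 112408 and 68984, and the early zygotic sums were 805 and 1518. In Drosophila_23 at 8 h the brighter array held less dhd, with brightness of 101409 and 131507.

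Over the 17 pairs the brighter array had the higher dhd in 15, the exceptions being Drosophila_17 and Drosophila_23 at 8 h. That count was 14 for cort, 13 for gnu, 12 for fs(1)N and 8 for both plu and png. For measured probe sets its median was 9 and its 90th percentile 12. The part of brightness in these gaps was not tested.

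**Figure D5:**
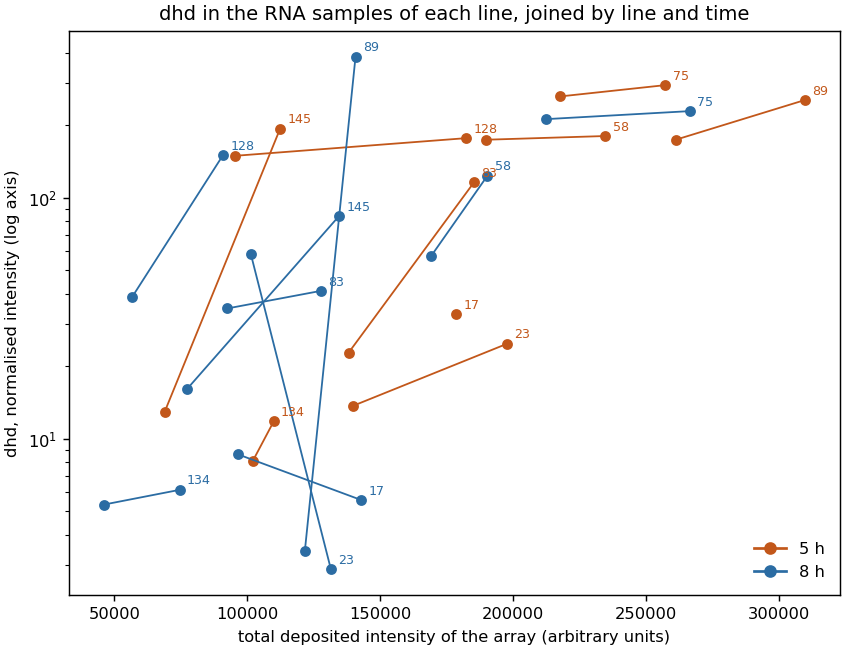
Normalised intensity of dhd (log axis, arbitrary units) against total deposited intensity of the array (arbitrary units), with a line joining the RNA samples of each pair and the line number at the brighter array. In 15 of 17 pairs the joining line rises to the right; Drosophila_89 at 8 h runs from 3.41 to 385 over a small difference in brightness.

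Genes beside these members on the chromosome, chosen by position after the values of the members were known, did not pass the test for time. TrxT, the testis thioredoxin gene beside dhd, was above the limit on 3 of 36 arrays, with means of 0.835 and 0.871 at 5 h and 8 h. CG4198, next along, was above it on 0 arrays. PCNA, the replication clamp gene beside plu, was at 97.3 ± 22.9 and 80.3 ± 17.2 (SD, n = 9), with a change of -0.24 and a limma adjusted p of 0.225. NHP2, a ribonucleoprotein gene beside gnu, changed by 0.07 (limma adjusted p = 0.77). Over both times some neighbours differed among lines, where 19.5% of all probe sets were called. These were PCNA, NHP2, RpS18 beside plu and Nse1 beside cort (limma adjusted p of 0.00284, 0.00134, 0.000838 and 0.0143), and the other neighbours were not called. The general thioredoxin gene Trx-2, which is no neighbour, went from 15.4 ± 10.7 to 19.98 ± 11.2 (SD, n = 9), which did not pass the test for time (limma adjusted p = 0.26), and differed among lines with Drosophila_58 highest (limma adjusted p = 1.37e-06).

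The genes most like each measured member over the 18 means of line and time were named by Pearson's r among 3742 measured genes, as a description. These candidates left out the 6 members and genes known only by a CG or CR number, and the points share lines and array brightness. For gnu they were Pxt, Mtpbeta, Lsd-2, Ggt-1 and otu, with r of 0.94 to 0.95. For plu they were Cen, wisp, Pp2B-14D, Slc25A46a and mRpS5, with r of 0.84 to 0.89; wisp encodes the cytoplasmic poly(A) polymerase of the egg. For dhd alphaTub67C, the maternal alpha-tubulin gene, came first with r = 0.95, followed by Got2, Uch, OXA1L and Jabba with r down to 0.91. For fs(1)N they were Scox, Jabba, Ggt-1, Gcna and superdeath, with r of 0.94 to 0.96; Jabba encodes the lipid-droplet protein that anchors maternal histones. Over the same candidates the median r was 0.12 with gnu, 0.13 with plu, 0.04 with dhd and 0.07 with fs(1)N, and the 95th percentile lay between 0.69 and 0.78.

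Genes that work with these members were described from lists. Over all 11982 genes with their own probe set, 4.61% rose and 5.04% fell from 5 h to 8 h, 25% differed among lines over both times, and the median change was 0.00. The 5211 measured genes among them had a median change of -0.04, and 2647 of them differed among lines. Most listed genes were measured. Of the measured genes in each list below, in order, 13 of 13, 3 of 6, 10 of 21, 12 of 14, 2 of 3, 16 of 22 and 17 of 19 differed among lines. Of 13 PAN GU targets and RNA regulators, 0 rose, 2 fell and 13 differed among lines, with a median change of -0.12. The fallers were me31B, an RNA helicase of stored messages, from 179 ± 64.6 to 102 ± 49.6 (SD, n = 9; -0.76, limma adjusted p = 0.00599), and the translational regulator Fmr1 (-0.22). Among lines BicC, me31B and pAbp had the widest spans, 1.66, 1.35 and 1.31. smg, whose translation PAN GU promotes, stood at 83.1 and 82.7, and CycB, another of its targets, at 230 and 204. Neither passed for time (limma adjusted p of 0.812 and 0.472), and both were lowest in Drosophila_58, as plu was. smg and CycB were picked for mention after their values were seen. Of the 13 genes, 5 were lowest in Drosophila_58 and 4 in Drosophila_134. Of all 2994 genes that differed among lines, 519 and 590 were.

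Of 11 genes of calcium and egg activation signalling, 0 rose, 1 fell and 3 differed among lines, with a median change of -0.02. The calcineurin regulatory subunit gene CanB2 fell by 0.34 and was highest in Drosophila_75 and lowest in Drosophila_134, a span of 1.06. Pp1-87B and Pp2B-14D, the others that differed among lines, spanned 0.53 and 0.51. Of 23 genes of the anaphase-promoting complex and meiotic exit, the setting of cort, 1 rose, 3 fell and 11 differed among lines, with a median of -0.03. Rca1, an inhibitor of the complex, rose by 0.46. mtrm, the Polo inhibitor of the oocyte, fell by 0.58, and the complex subunits Cdc23 and mr fell by 0.24 and 0.21. mtrm had the widest span of that list among lines, 2.18 from Drosophila_75 to Drosophila_134, followed by gwl with 0.95 and pim with 0.88.

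Of 19 genes of the thioredoxin system and sperm chromatin, the setting of dhd, 0 rose, 4 fell and 12 differed among lines, with a median of -0.04. The histone chaperone gene Nph fell by 0.62, the embryonic linker histone gene BigH1 by 0.58 and the mitochondrial peroxiredoxin gene Prx3 by 0.54. Trxr1, the thioredoxin reductase gene, fell by 0.46 and was highest in Drosophila_75 and lowest in Drosophila_134, a span of 1.12, and Nap1 and Trx-2 spanned 1.31 and 1.04 with Drosophila_89 and Drosophila_58 highest. Of 13 vitelline membrane and terminal signalling genes, the setting of fs(1)N, 0 rose, 1 fell (clos, by 0.19) and 4 differed among lines, with a median of 0.02, and 3 of the 13 were measured. The receptor gene tor spanned 0.59 with Drosophila_75 highest, fs(1)K10 0.48 with Drosophila_145 highest, and dec-1, above the limit on 4 arrays, 0.45.

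Of 27 regulators of the syncytial nuclear cycles, 1 rose, 5 fell and 16 differed among lines, with a median of -0.01. nuf, a gene of furrow formation, rose by 0.29. Z600, a zygotic inhibitor of mitosis and a member also of the early zygotic list, fell by 2.44, the checkpoint kinase gene lok by 0.32 and trbl by 0.22. zld, the activator of the zygotic genome, and Z600 were lowest in Drosophila_75, with spans of 2.01 and 1.90, and lok was highest in Drosophila_75 with a span of 1.40. Of 23 other maternal transcripts, of which smg, CycB and tor are also in lists above, 1 rose, 8 fell and 17 differed among lines, with a median of -0.15. The falls were led by the germ plasm gene osk (-0.64), the RNA localisation gene swa (-0.45) and the posterior determinant cad (-0.45), and stau rose by 0.28. Of the 17 that differed among lines, 13 were highest in Drosophila_75 or Drosophila_89, 8 lowest in Drosophila_134 and 7 lowest in Drosophila_58; of all 2994 genes that differed among lines, 886, 590 and 519 were. osk, exu and swa had the widest spans, 2.06, 1.86 and 1.41, each from Drosophila_75 to Drosophila_134.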

How the data were processed

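Total RNA of whole embryos was labelled as biotin cRNA and hybridised to 1-colour Affymetrix expression arrays, per the labels' protocols. The authors deposited intensities for 18952 probe sets, judged from the values to be on a linear scale; which software and scaling gave them is not given in the sources used here. Control probe sets (183) were left out. Medians of log2 deposited intensity spanned 0.89 between arrays, so intensities were quantile normalised over 18769 probe sets and taken as log2(intensity + 16); 91.3% of values lay below the pseudocount of 16. The negative-control probe sets were taken as such by their names, which no source used here states.

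Models were fitted with limma 3.58.1 (R 4.3.3), the prior variance following mean signal, and p-values were adjusted by Benjamini-Hochberg over all probe sets, with 0.05 as threshold. Times were compared over 18 means of line and time with line as a block. Lines were compared with a mean for each line and time (35 arrays, 17 residual degrees of freedom). In simulated data, 98 of 100 probe sets with a time change of 0.5 were recovered. For line effects with an SD of 0.5 over the 9 lines, which is not a difference of 0.5 between lines, it was 99 of 100. False calls among 18569 unchanged probe sets were 10 and 13. These counts pool the simulated probe sets and do not give the power or false calls for the real arrays. Power for a gene as variable as dhd, with an SD of 0.81 between RNA samples, was not tested. False calls through brightness, which moved with time, were not tested either. Among the 18769 probe sets 13647 had 1 gene symbol, 402 several and 4720 none here; 13544 were matched to RefSeq Release 6 plus ISO1 MT. For a listed gene the probe set with the highest mean stood for it. Listed genes not found with 1 gene symbol were left out of all counts. In the order of the text, 13 of 17, 11 of 17, 23 of 27, 19 of 22, 13 of 17, 27 of 35 and 23 of 26 listed genes were found. Of the marker lists, 7 of 8 genes of older embryos and 8 of 9 of ovary were found, and the others were complete. From each list, genes called for time with the 3 largest rises and 3 largest falls, and those called for lines with the 3 widest spans, were named. Members, lists and tests were chosen with earlier results of these data known. Alternatives covered scaling, pseudocount, dim probe sets, brightness, prior variance, the block and left-out lines or RNA samples. The number of arrays limits the precision.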

Additional observations from a re-analysis of the deposited data

Results flagged for a closer look

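The 9 line means of each gene at 5 h and at 8 h, and its 9 changes from 5 h to 8 h, gave 18 sets. In 2 of them a line's gap to the nearest other line exceeded Dixon's 95% critical value, and both were sets of line means. Chance alone gives about 1 in 20 such sets. plu at 5 h was 4.26 on the log2(intensity + 16) scale in Drosophila_58, and the next lowest line stood at 4.92. png at 8 h was 4.43 in Drosophila_75, and the next highest line stood at 4.19.

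The 5 h array whose title names no line was outside every line comparison. Its deposited intensities were above its negative-control limit of 2.38 for 5 of the 6 genes: 16.2 for gnu, 4.51 for plu, 3.01 for png, 22.97 for dhd and 3.57 for fs(1)N. cort, at 0.872, was below it. After normalisation the values were 21.8 for gnu, 6.66 for plu, 4.39 for png, 29.9 for dhd and 5.26 for fs(1)N. Its plu lay above both arrays of Drosophila_58 at 5 h and below the other 15 arrays with a named line at that time.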

How the results depend on the processing

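gnu was lower at 8 h in 23 of 23 alternatives, by 0.43 to 1.54 on the log2 scale, and was called in 22; dhd was called in 18, plu in 12 and fs(1)N in 11, each with a negative change in all 23. The count of genes called lower at 8 h, 4, became 1 with brightness as a covariate on single arrays, 0 with mean brightness as a covariate on line means (chosen after seeing the data) and 2 without a trend in the prior variance. It ranged from 2 to 4 when a line was left out, and was 1 without RNA sample 1 and 1 without RNA sample 2. The changes near 0 turned positive under brightness covariates: cort to 0.026 on single arrays and to 0.0061 on line means, and png to 0.000695 on line means. The cause was not tested. Among lines, the 5 genes called at 5 h became 2 with brightness as a covariate, where by limma gnu had an adjusted p of 0.129, dhd of 0.106 and fs(1)N of 0.0578. At 8 h the 4 genes called became 3 with this covariate, where dhd had a limma adjusted p of 0.124. For the change by line, 0 became 1 with arrays centred on their medians (fs(1)N), with pseudocounts of 4 and of 1, with measured probe sets only, and without Drosophila_128 (plu in these 4); the range without a line was 0 to 1. Of gene pairs, 7 became 12 on the deposited scale and ranged from 0 to 11 when a line was left out, with 0 without Drosophila_75, 2 without Drosophila_134, 4 without Drosophila_83 and 11 without Drosophila_89. RNA sample numbers were not shown to pair 5 h with 8 h arrays (r of deviations from -0.389 to 0.279, over 0.1 in 3 of 8 lines). With the replicate block of line and sample number, 4 genes were called for time and 2036 probe sets in place of 1411; with sample number as a block, 6, 5, 4 and 0 genes were called for lines over both times, at 5 h, at 8 h and by time. With measured probe sets only, png and cort were not tested. Over all counts under alternatives, those described above included, 86 stayed within 1.5 times the value given, 7 became larger than that and 14 smaller. Most values lay near background, which limits png and cort most.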
